A study of Equus caballus with 93 samples.

Results

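The comparison sets the synovial fluid cells of saline-injected, operated joints at week 10 against the cells of the same joints before surgery. Its libraries are the 8 labelled Control and week 10 and the 8 labelled Control and week 0, 16 of the 93 in the series, and each horse is paired with itself by its number (1, 2, 9, 10, 11, 13, 15 and 16). The horses, 2 to 5 years old, belong to a study of 16 animals in which a bone and cartilage fragment was made surgically in 1 middle carpal joint to produce osteoarthritis. Control joints received 2 mL of phosphate buffered saline on day 14, while the joints of the other 8 horses received 2 mL of a 2.5% polyacrylamide hydrogel (iPAAG). Control week 10 fluid therefore came after the fragment surgery, the saline injection and exercise on 5 days a week from week 2, and Control week 0 fluid came before all of them. Surgery, exercise and elapsed time cannot be told apart in this comparison, and the sham-operated joints were not analysed here. RNA was total RNA of the cell pellet of hyaluronidase-digested fluid, sequenced after a low-input stranded library preparation.

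Synovial fluid of a resting joint holds few cells, mostly macrophages and lymphocytes, together with cells shed from the lining. Injury to cartilage and bone draws further leukocytes into the fluid and activates the lining, and in the weeks after surgery the mix of cells can return to its resting state or settle in a persistent low-grade synovitis. The table gives Ensembl horse identifiers only, and 0 of its 15838 identifiers could be paired with a gene name, so neither the labelled cell type nor any list of cell type or pathway genes could be checked. In bulk RNA of this kind, fewer cells of a type and less RNA per cell cannot be told apart.

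The spread of a library, the SD over all genes of its log2 CPM (reads relative to library size), set 2 of the 8 week 10 libraries apart. Horses 9 and 13 had a spread of 1.90 and 1.35 at week 10, and the rule of the comparison leaves libraries below 2 out of the main fit. The next library inside that limit was that of horse 1 at 2.74, and the other 5 lay between 3.39 and 3.72. At week 0 all 8 libraries were kept, with spreads of 3.24 to 4.21. The 16 libraries held 5083967 to 33885608 reads in genes, the lowest being horse 13 at week 10. Few genes were without a read in the flatter libraries: 8 in horse 13, 4 in horse 9 and 12 in horse 1 at week 10, against 328 to 2360 genes in the week 0 libraries. Over all 8 pairs, spread averaged 2.97 ± 0.90 at week 10 and 3.53 ± 0.32 at week 0 (SD, n = 8 each), was higher at week 10 in 3 of 8 horses and did not pass a two-sided exact sign-flip permutation test (p = 0.164, adjusted p = 0.547 over 4 library measures). The number of genes expected to be seen in 1737741 reads averaged 14285 ± 1060 at week 10 and 13788 ± 598 at week 0 (SD, n = 8 each), higher at week 10 in 4 of 8 horses (exact permutation p = 0.273, adjusted p = 0.547).

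As a whole, the week 10 profile did not differ from the week 0 profile in its distance from a resting reference by a test over 6 pairs, which does not show that the distances were alike. The reference was the mean week 0 profile of 7 iPAAG horses, which shares no library with the Control horses. The root mean square difference from it was 1.16 ± 0.12 log2 CPM at week 10 and 1.23 ± 0.48 at week 0 in the 6 horses with both libraries kept (SD), larger at week 10 in 4 of 6 (exact permutation p = 0.812, adjusted p = 0.812; the smallest p that 6 pairs allow is 0.0312). The distance by correlation, 1 minus Pearson r over genes, was 0.0499 ± 0.0115 at week 10 and 0.0556 ± 0.0253 at week 0 (SD, n = 6 each, exact permutation p = 0.719, adjusted p = 0.812). Horse 11 decided the sign of both mean differences: its week 0 library lay 2.09 log2 CPM from the reference, and without that horse the mean difference was 0.0760 for the first measure and 0.00193 for the second. Over the kept libraries of weeks 0, 2, 4, 6, 8 and 10, the root mean square distance averaged 1.21, 1.29, 1.31, 1.35, 1.33 and 1.16 log2 CPM. What follows therefore concerns changes shared by the horses, within profiles that already differed between animals before surgery.

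**Figure D1:**
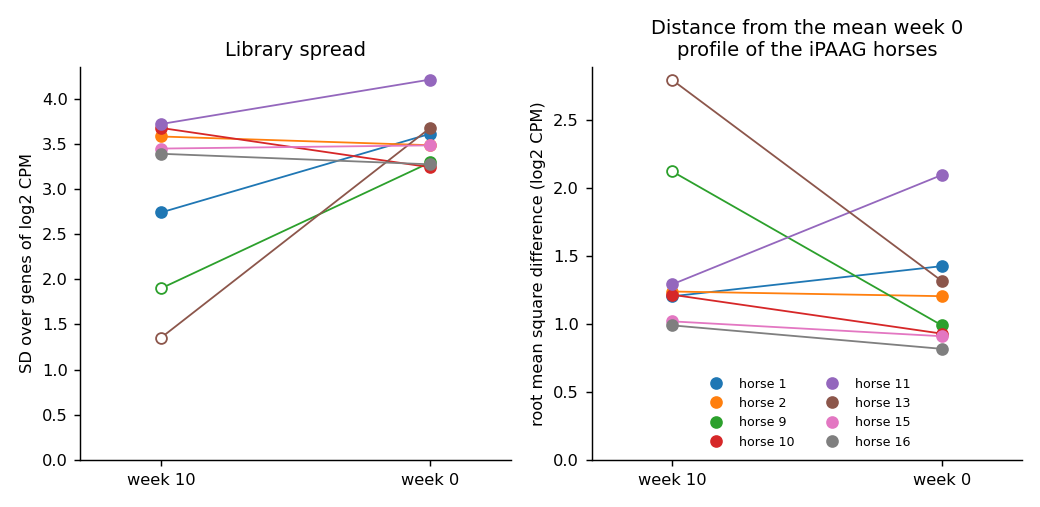
Library spread (SD over genes of log2 CPM, left) and root mean square distance from the mean week 0 profile of the iPAAG horses (log2 CPM, right) for each Control horse at week 10 and at week 0; lines join the libraries of a horse and open circles are the week 10 libraries of horses 9 and 13, left out of the main fit. Without these 2 libraries the week 10 distances lie between 0.989 and 1.29, inside the week 0 range of 0.817 to 2.09.

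Against the sample before surgery, 3538 of 15838 genes (22.3%) were called at week 10, meaning an adjusted p below 0.05 by limma in a model with horse as a random block. Of these, 1437 genes (9.07%) were higher and 2101 (13.3%) lower. The called changes were mostly moderate: the median log2 change was 0.72 among the higher genes, with quartiles of 0.50 and 1.28, and -0.81 among the lower ones, with quartiles of -1.30 and -0.57. A change of at least 1 on the log2 scale was reached by 484 higher and 792 lower genes, and a change of at least 2 by 194 and 167. Without horse 13, which enters through its week 0 library, the count of 484 was 317. The fitted sign was seen in all 6 pairs for 951 of the higher genes (66.2%) and 1455 of the lower genes (69.3%), against 8.61% of all genes higher and 12.1% lower in all 6 pairs. The 6 week 10 libraries did not overlap the 8 week 0 libraries for 294 higher genes (1.86% of all genes) and 613 lower genes (3.87%), together 5.73%, and 283 and 590 of these were called. The calls used these same libraries, so the shared sign and the lack of overlap describe the called genes and are no separate test.

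Which direction held the larger share depended on scaling. The median change over all genes was -0.016 in the deposited values and 0.107 after each library was centred on its median, and the called split became 2090 higher and 1437 lower, or 59.3% higher in place of 40.6%. Relative to that shift, 1327 higher and 1345 lower genes were called with the same sign under the deposited scaling, median centring and quantile normalisation. With all libraries kept, 1551 genes were called, 496 higher and 1055 lower. All 2101 lower genes and 1406 of the 1437 higher genes kept their sign in that fit, and 1006 and 426 of them were called. With spread added as a covariate to the same libraries, 4033 genes were called, 1559 higher and 2474 lower. Fitted alone as 6 complete pairs with horse as a fixed block, the comparison called 2307 genes, 940 higher and 1367 lower. In the horses whose week 10 libraries were left out, the change was taken from their own week 0 libraries, which were in the fit that chose the genes, so it is no independent measure. In horse 9 the genes called higher had a median change of 0.50 and those called lower -0.99, and 85.2% and 89.8% of them moved in the fitted direction, where 53.8% of all genes were higher. In horse 13 the medians were -0.41 and -1.06, and 42.2% and 72.7% moved in the fitted direction, where 50.9% of all genes were higher. The part of low spread in this difference between the 2 horses was not tested.

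**Figure D2:**
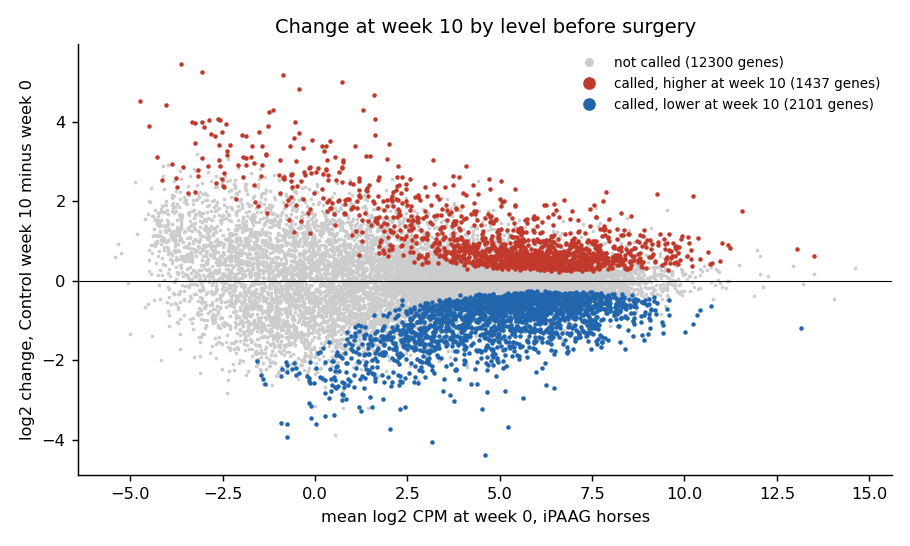
Log2 change of each gene in Control horses, week 10 minus week 0 (vertical axis), against its mean log2 CPM at week 0 in 7 iPAAG horses, which are not in the contrast (horizontal axis). Red and blue points are the 1437 genes called higher and the 2101 called lower at week 10. Called changes in both directions are widest at low levels, with medians of 2.67 and -2.27 in the lowest of 4 groups by level.

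Levels before surgery were taken from the iPAAG horses, so that they do not enter the contrast. In the lowest of 4 equal groups by level, 4.12% of genes were called higher and 2.6% lower at week 10. In the group above it the shares were 6.42% and 12.9%, in the next 9.88% and 18.3%, and in the group of highest level 15.9% and 19.3%. The called genes of the lowest group had the widest changes, with medians of 2.67 and -2.27, against 0.58 and -0.66 in the highest group. These medians cover called genes only, which favours wide changes where the standard error is large. Over all genes of the lowest group the median change was 0.14. At low levels the size rests on few reads: of the 194 genes higher by at least 2, 80 had a median of under 10 reads at week 0, and of the 167 genes lower by at least 2, 62 had a median of under 10 reads at week 10. After median centring, 893 genes of the highest group were called higher and 469 lower. The counts were 607 and 483 in the group below it, and 378 and 399 in the next. The excess of falls thus turned to one of rises in the highest group and the group below it, and only narrowed in the next. Among the 100 genes of highest level, 31 were called higher and 6 lower, with a median change of 0.22.

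The called genes made up a large part of what was sequenced. These genes were chosen by the contrast itself, so the shares at weeks 10 and 0 only describe its size. Genes called higher took 26.8% ± 1.6 of the reads at week 10 (SD, n = 6) and 16.97% ± 1.8 at week 0 (SD, n = 8). Genes called lower took 9.29% ± 0.70 at week 10 and 17.3% ± 2.5 at week 0. The 6 kept week 10 libraries were close to each other in both shares, at 25.2% to 29.9% and 8.26% to 9.98%. Horse 9 at week 10, left out of the fit, had 24.5% and 9.69%, near those 6, while horse 13 had 13.3% and 14.0%. At weeks 2, 4, 6 and 8 the share of the genes called higher averaged 21.6%, 21.0%, 23.7% and 19.7%, and that of the genes called lower 14.6%, 13.9%, 11.4% and 11.4%. The week 8 library of horse 11 had 57.1% of its reads in 10 genes and the lowest shares of that week, 9.88% and 6.27%, and without it the week 8 means were 21.3% and 12.2%. Horse 9 also stood elsewhere, with 8.53% of its reads in the lower genes at week 2 and 21.2% at week 4.

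**Figure D3:**
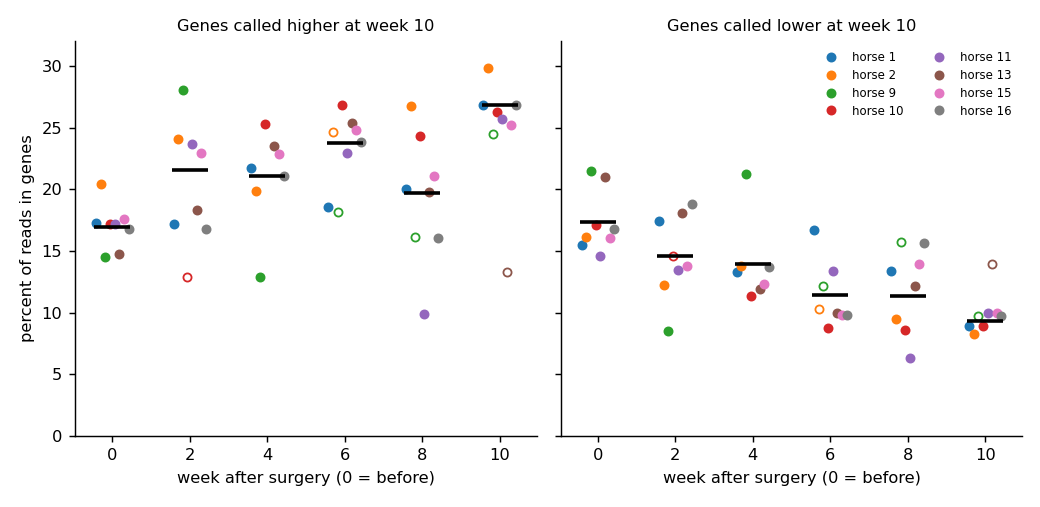
Percent of a library's reads that fell in the 1437 genes called higher (left) and the 2101 genes called lower (right) at week 10, for every Control library by week. Points are horses, open points are libraries of spread below 2, and black bars are means of the kept libraries, which reach 26.8% and 9.29% at week 10; the genes were chosen on weeks 10 and 0.

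The largest rises and falls that met the naming rule (mean log2 CPM of at least 1, called, same sign in all 6 pairs) are given by identifier, since no name or role could be attached to them. ENSECAG00000011663 had log2 CPM of 4.89, 5.08, 5.01, 5.94, 5.98 and 6.69 at week 10 in horses 1, 2, 10, 11, 15 and 16, against -0.36, 2.23, 1.51, 1.02, 0.28 and 1.15 at week 0. The groups did not overlap, and the 2 other horses also stood low at week 0, at 1.14 and -0.10. The mean was 5.60 ± 0.72 at week 10 (SD, n = 6) and 0.86 ± 0.86 at week 0 (SD, n = 8), a rise of 4.66 ± 0.60 on the log2 scale (SE, limma adjusted p = 1.44e-06). Reads had a median of 920 at week 10 and 45.5 at week 0. In the flatter week 10 libraries of horses 9 and 13 the gene stood at 4.76 and 3.76, above every week 0 library. The medians over all genes there were 4.24 and 4.47, and ENSECAG00000050818, a falling gene, stood at 3.02 and 4.63. Standing above week 0 in these flat libraries is thus no separate support for the rise. The Control means of ENSECAG00000011663 at weeks 2, 4, 6, 8 and 10 were 6.51, 5.02, 4.05, 4.08 and 5.60. The mean was thus highest at week 2, and each later mean lay above the highest week 0 library, at 2.23. Horses 2, 11 and 15 were lower at week 10 than at week 2. Horses 1 and 16 were higher, at 4.89 and 6.69 against 3.98 and 6.35. The change between week 10 and week 2 was -0.99 ± 0.62 (SE, limma adjusted p = 0.26), which did not pass the test.

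ENSECAG00000044796 followed another course. It had log2 CPM of 0.89, 5.25, 1.78, 1.56, 2.60 and 3.09 at week 10 in horses 1, 2, 10, 11, 15 and 16, against -0.01, 4.13, -0.19, -5.09, -5.65 and -2.53 at week 0. The groups overlapped through horse 2, which stood high at both weeks, and every pair rose. Horses 9, 11, 13 and 15 had no read of it at week 0, and the median was 92 reads at week 10 and 2 at week 0, so the rise of 5.01 ± 1.04 (SE, limma adjusted p = 0.00102) rests on the 0.5 reads that stand in for an absent one. The gene passed the naming limit narrowly, with a mean of 1.06 log2 CPM over all groups, through the groups where it was high. With 5 reads added the rise was 3.30 ± 0.75 (SE, limma adjusted p = 0.00205). Its Control means at weeks 2, 4, 6, 8 and 10 were -1.01, -0.23, 1.74, 2.24 and 2.53. Week 10 was higher than week 2 by 3.37 ± 1.07 (SE, limma adjusted p = 0.0168). The gene was picked for its rise at week 10, and this test uses the same week 10 libraries, which favours the difference.

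Of the falling genes, ENSECAG00000024152 had log2 CPM of 3.37, 1.36, 1.54, 2.26, 2.05 and 2.07 at week 10 in horses 1, 2, 10, 11, 15 and 16, against 5.02, 5.27, 6.94, 5.16, 4.74 and 6.09 at week 0. No week 10 library of these horses reached the lowest week 0 library. The change was -3.68 ± 0.65 (SE, limma adjusted p = 0.000421), with means of 2.11 ± 0.71 at week 10 (SD, n = 6) and 5.81 ± 0.86 at week 0 (SD, n = 8). Control means at weeks 2, 4, 6, 8 and 10 were 5.03, 5.51, 3.44, 4.80 and 2.11. The changes at weeks 2, 4 and 8 did not pass the test against week 0, at -0.82, -0.31 and -1.01 (limma adjusted p = 0.388, 0.807 and 0.291). Week 6 did pass, at -2.38 ± 0.65 (SE, limma adjusted p = 0.0132), and week 10 was lower than week 2 by -2.86 ± 0.68 (SE, limma adjusted p = 0.00153). Because the gene was picked for its fall at week 10, the same week 10 libraries favour the difference from week 2. This gene was lower at week 10 in all 8 horses, but the naming rule required that sign in 6 of them. Horses 9 and 13, of low spread, stood at 4.28 and 5.21 at week 10 against 6.66 and 6.62 at week 0. The medians over all genes of those week 10 libraries were 4.24 and 4.47, and the part of low spread in these falls was not tested.

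ENSECAG00000050818 had log2 CPM of 0.71, -0.53, -0.74, -1.69, -0.42 and -1.20 at week 10 in horses 1, 2, 10, 11, 15 and 16, against 8.14, 1.68, 2.62, 4.54, 1.88 and 2.02 at week 0. Horse 1 stood far above the other horses at week 0, with 6691 reads. This gene too passed the naming limit only through the groups where it was high, with a mean of 1.05 log2 CPM. The change was -3.72 ± 0.75 (SE, limma adjusted p = 0.000841), and -3.24 ± 0.74 without horse 1 (SE, limma adjusted p = 0.00353). With all libraries it was -2.57 ± 1.03 (SE, limma adjusted p = 0.0966), and horses 9 and 13 stood higher at week 10 than at week 0, at 3.02 and 4.63 against 2.16 and 1.31. The gene was thus not called in that fit, which added every library of low spread. With all libraries and spread as a covariate the change was -3.59 ± 0.73 (SE, limma adjusted p = 0.00028). Spread is computed from the same values, and the cause of the lost call was not tested.

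**Figure D4:**
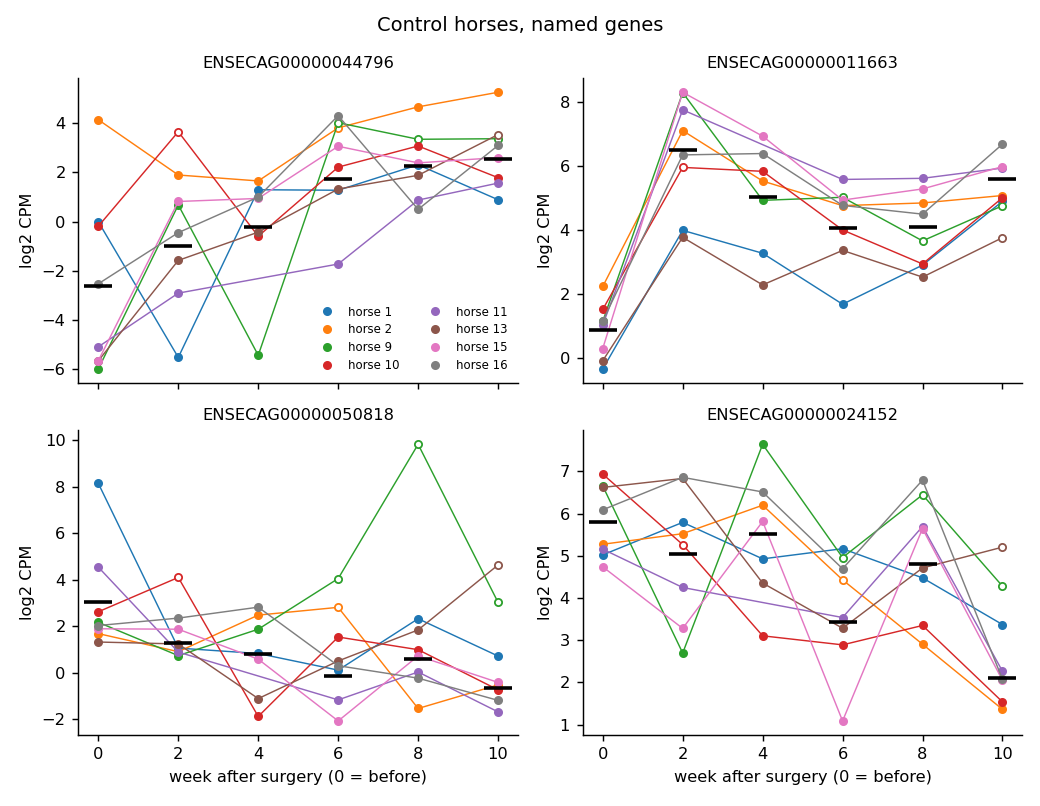
Log2 CPM of the 4 named genes in every Control library by week; lines join the libraries of a horse, open points are libraries of spread below 2 and black bars are means of the kept libraries. ENSECAG00000011663 is highest at week 2 and stays up, ENSECAG00000044796 climbs to 2.53 at week 10, and the means of ENSECAG00000050818 and ENSECAG00000024152 end at -0.65 and 2.11.

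The genes called at week 10 were then followed through the earlier weeks. In Control horses the week 0 libraries are shared by every week, so the values are only set side by side. For the genes called higher at week 10, the median log2 changes at weeks 2, 4, 6, 8 and 10 were 0.44, 0.37, 0.52, 0.40 and 0.72. Those of the genes called lower were -0.24, -0.24, -0.56, -0.41 and -0.81. All genes had medians between -0.02 and 0.07. The genes were picked for week 10, which favours the value at that week, and no test was made of how the medians differ from week to week.

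The iPAAG horses shared no library with the Control horses and gave a separate measure of the same genes, although their joints held gel from day 14. Measured from the iPAAG horses' own week 0, the genes that were higher in Control joints had median changes of 0.59, 0.25, 0.35, 0.61 and 0.73 at weeks 2, 4, 6, 8 and 10. Those that were lower had -0.50, -0.31, -0.29, -0.77 and -0.84, beside medians of -0.02, -0.18, -0.08, -0.16 and -0.09 over all genes. At week 8, where 6 iPAAG libraries were kept, 819 of the 1437 higher genes were called higher, which is 57.0% of that list and 49.0% of the iPAAG list, where 28.5% of all genes were called and 10.5% were called higher. Of the 2101 lower genes 1437 were called lower there, which is 68.4% of the list and 50.5% of the iPAAG list, where 18% of all genes were called lower. The iPAAG split at week 8, 1670 higher and 2848 lower, was 2870 and 1836 after median centring, and 275 and 988 with all libraries, and the shares by direction were not recomputed for those lists. Fewer iPAAG libraries were kept at weeks 4, 6 and 10. At week 4, with 3 libraries and 5.43% of all genes called, 107 of the higher genes were called higher and 123 of the lower genes lower, where 1.31% and 4.12% of all genes were called in those directions. At week 6, with 4 libraries and 4.24% of all genes called, these counts were 177 and 51, where the shares of all genes were 2.99% and 1.26%. At week 10 only 2 libraries were kept, 5.23% of all genes were called, and 239 and 443 of the genes were called in the same direction, where 1.82% and 3.4% of all genes were. With horse as a fixed block the whole iPAAG count at week 10 was 4 in place of 828, and at week 6 it was 238 in place of 672. With no block the counts were 674 and 565, so among these 3 fits the large loss came with the fixed block alone. Both arms were tested with 1 variance estimate for each gene, which by itself raises such overlaps. The difference between the arms in the change from week 0 to week 10, iPAAG minus Control, was called by limma for 0 of 15838 genes (0%). Before adjustment 213 of them had a p below 0.05. With 2 iPAAG libraries at week 10 this does not show that the arms changed alike.

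To ask which part of the early response remained, genes were taken from the iPAAG horses at week 2 and read in the Control horses. The labels do not say whether week 2 fluid was drawn before the injection. Week 2 of the iPAAG horses differed from their week 0 in 4289 genes (27.1%), with 2220 higher (14%) and 2069 lower (13.1%). Median centring made that split 3491 higher and 1298 lower, and with all libraries 1579 genes were called, 605 higher and 974 lower, so both the size and the balance of this list depend on the processing. Of the 2220 higher genes, 869 (39.1%) were called higher in Control horses at week 10 and 1 was called lower, where 9.07% of all genes were called higher. Of the 2069 lower genes, 879 (42.5%) were called lower and 6 higher, where 13.3% of all genes were called lower. Both lists came from 1 fit with 1 variance estimate for each gene, which by itself raises such overlaps. Genes of higher level were also called more often at week 10, so the shares over all genes are no matched comparison. Called higher in Control horses at weeks 2, 4, 6 and 8 were 1275, 898, 616 and 373 of the 2220 genes, where 12.6%, 8.98%, 6.77% and 5.49% of all genes were called higher. Called lower at those weeks were 828, 441, 460 and 309 of the 2069 genes, where 7.7%, 5.46%, 6.2% and 4.87% of all genes were called lower. With all libraries in the Control week 10 contrast, 216 of the first and 599 of the second were called in the early direction. In that fit 496 of all 15838 genes were called higher and 1055 lower. Seen from week 10, the 869 genes were 60.5% of all genes called higher and the 879 genes were 41.8% of all genes called lower. The other 562 higher genes and 1221 lower genes, apart from 6 and 1 of the opposite early direction, were not called at week 2 in iPAAG horses, with median week 10 changes of 0.87 and -0.72.

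By horse, the 2220 early rising genes stood above each animal's own week 0 at week 10 in all 6 horses with a kept library, with medians of 0.44, 0.40, 0.41, 0.38, 0.18 and 0.47 in horses 1, 2, 10, 11, 15 and 16. The 2069 early falling genes stood below it in the same 6 horses, with medians of -0.53, -0.46, -0.58, -0.19, -0.53 and -0.80. Averaged over 7, 7, 6, 7 and 6 horses at weeks 2, 4, 6, 8 and 10, the median of the early rising genes was 0.524 ± 0.259, 0.395 ± 0.136, 0.365 ± 0.156, 0.237 ± 0.128 and 0.381 ± 0.104 (SD). That of the early falling genes was -0.627 ± 0.383, -0.474 ± 0.238, -0.448 ± 0.367, -0.268 ± 0.126 and -0.514 ± 0.196 (SD). Both sets were nearest to week 0 at week 8 and farther from it again at week 10, and this order was not tested. Of the libraries of low spread at week 10, horse 9 had 0.20 and -0.64 and horse 13 had -0.86 and -0.66, so both sets were below week 0 in horse 13. In horse 13 the median over all genes was 0.06.

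**Figure D5:**
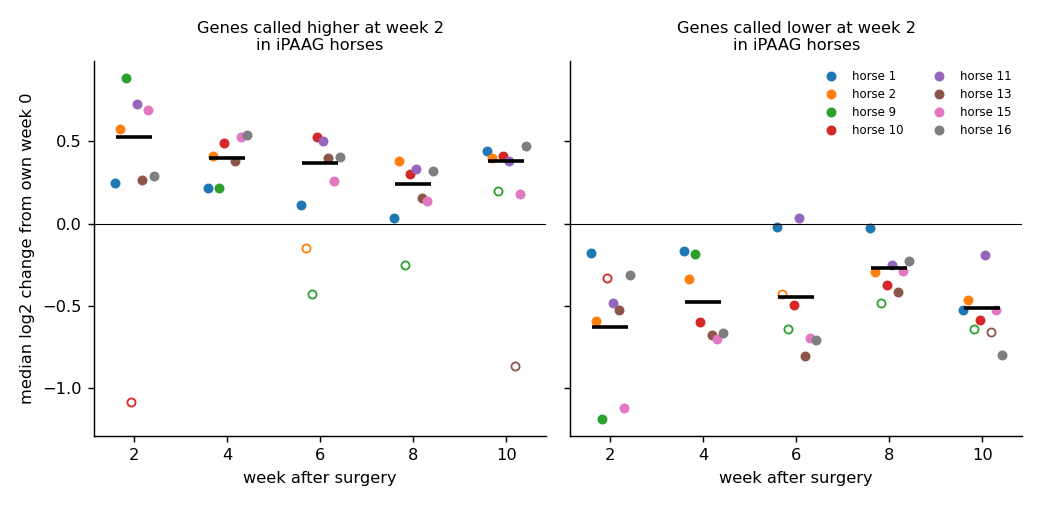
Median log2 change from the horse's own week 0 in Control horses, at each later week, of the 2220 genes called higher (left) and the 2069 called lower (right) at week 2 in iPAAG horses. Points are horses, open points are libraries of spread below 2 and black bars are means of the kept libraries, 0.381 and -0.514 at week 10.

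Week 10 was also set against week 2 within the Control horses. By limma 3697 genes (23.3%) were called, 1353 higher and 2344 lower at week 10. Without horse 15 the count was 2286, with 695 higher, and without horse 2 the higher genes numbered 892. Quantile normalisation gave 1913 higher and 1757 lower, or 52.1% higher in place of 36.6%. The early rising genes taken from iPAAG horses had a median of -0.12 between Control weeks 10 and 2, beside -0.07 over all genes. Of these, 424 (19.1%) were called lower at week 10 than at week 2, where 14.8% of all genes were called lower. The early falling genes had a median of 0.00, and 332 (16.0%) were called higher, where 8.54% of all genes were called higher, while 165 (7.97%) were called lower. Week 2 itself differed from week 0 in 3216 genes (20.3%) of the Control horses, 1996 higher and 1220 lower. Without horse 15 there were 1884, of which 546 were lower, and without horse 11 the higher genes numbered 1302. The week 2 split of 62.1% higher was 76.2% after median centring, with 2786 higher and 872 lower. At weeks 4, 6 and 8, 14.4%, 13% and 10.4% of genes were called against week 0. These percentages share the same week 0 libraries and moved widely with single horses. The counts behind them were 2287, 2054 and 1641, and ranged from 1234 to 2687, 834 to 3248 and 885 to 1893 with single horses left out. At week 4 the count was 1477 without horse 2, 1278 without horse 15 and 1234 without horse 16. At week 6 it was 3248 without horse 1, 888 without horse 10, 925 without horse 13, 834 without horse 15 and 938 without horse 16, and at week 8 it was 912 without horse 2, 1093 without horse 10 and 885 without horse 11. All libraries gave 613, 1188 and 469 called genes at these weeks, and a spread of at least 3 gave 2314, 128 and 1704.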

How the data were processed

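The authors deposited 1 table of log2 CPM values for 15838 genes in 93 libraries. Per the submitters' processing notes, limma 3.62.2 and STAR 2.7.10b were used with the horse build EquCab3.0. No source used here states how reads were counted, whether by strand, with which annotation, or which low genes were dropped, so the share of reads of overlapping or near-identical genes is uncertain. Each deposited log2 value takes whole reads with 0.5 added and divides by a scaled library size: with the lowest value of a library set to 0 reads, 100.0% of values were whole within 0.05 reads. Libraries held 1737741 to 39916655 reads in genes. Reads were PCR-amplified, so they are not independent molecules.

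Libraries were grouped by their titles. The table of gene names given was from another assembly and matched 0 identifiers, so the gene lists drawn up could not be used. In R 4.3.3, limma 3.58.1 fitted 12 means, 1 for each arm and week, to the 70 libraries of spread of at least 2, with a mean-variance trend and Benjamini-Hochberg adjustment over all genes. Horse was a random block (consensus correlation 0.094), because the same animals were sampled at each week. Deviations of libraries of the same horse had a mean correlation of 0.10, against -0.01 between horses of different groups, and the 6 pairs of weeks 10 and 0 had 0.02 to 0.34. Values per library were tested by two-sided exact sign-flip permutation over horses. Those tests and the plots were made in Python 3.11.15 (matplotlib 3.10.9, pandas 2.3.3, scipy 1.17.1, numpy 2.4.6). The fit was tested on simulated reads with known changes, made for the kept libraries without differences in spread or scaling. That test therefore does not bear on how the counts depend on either. No 2 libraries were identical.

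The rule for named genes was the 2 largest rises and 2 largest falls at week 10 in Control horses whose log2 CPM averaged at least 1, with an adjusted p below 0.05 and the same sign in all 6 complete pairs. The comparison, its rule and its lists were chosen with earlier results of these data known. Alternatives changed the libraries, block, scaling, filter, weights and added reads, left out single horses, and, added after the data were seen, left out horse 1 at week 10 or fitted complete pairs alone.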

Additional observations from a re-analysis of the deposited data

Results flagged for a closer look

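Of 22 groups of libraries screened for a value far from the others, 5 had one, and chance alone flags about 1 group in 20. The groups are not independent: 1 library was flagged for both spread and detected genes, and other measures rest on genes chosen in these data. The number of flags is therefore no test of an excess. Before surgery, ENSECAG00000050818 stood at 8.14 log2 CPM in horse 1, apart from the other 7 Control horses at 1.31 to 4.54. The week 0 library of horse 11 had a spread of 4.21 and 12492 genes at the common depth, where the other 7 had spreads of 3.24 to 3.68. At week 10, 29.9% of the reads of horse 2 fell in the genes called higher, above 25.2% to 26.8% in the other 5 kept libraries. The early rising genes had a median week 10 change of 0.18 in horse 15, below 0.38 to 0.47 in the other 5 horses.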

How the results depend on the processing

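The count at week 10 against week 0 in Control horses, 3538, lay within 1.5 times of its value under 19 alternatives and beyond it under 4: 1551 with all libraries, 5904 with array weights, 2307 for complete pairs alone with the fixed replicate block and 1649 for all 8 pairs with that block. It was 2749 with a spread of at least 3 (928 higher), 2874 without the horse 1 week 10 library, 3204 with the fixed replicate block in the whole fit and 3075 with no replicate block, so the block in the whole fit changed no count of the Control contrasts by over 1.5 times; leaving out single horses gave 2447 to 3160. Falls of at least 1 numbered 1414 with array weights and 1219 with spread as a covariate. The count at week 2 against week 0, 3216, was 1030 with all libraries, 1663 with only the groups compared and 1884 to 3224 with single horses left out, and its percent higher was 52.3% with array weights and 50.2% with spread as a covariate. The count at week 10 against week 2, 3697, was 1232 with all libraries, 6317 with array weights and 2286 to 4619 with single horses left out. The difference between arms was called for 0 genes under 21 alternatives, with 131 to 1053 genes at an unadjusted p below 0.05. The distance from the resting reference changed sign with all libraries, to 0.0647 (1 minus r) and 0.273 log2 CPM, and without horse 11; with single horses left out the differences were -0.00885 to 0.00193 and -0.142 to 0.0760. Those of spread were -0.701 to -0.307 and those of detected genes 246 to 701, and neither passed the test under any alternative run. Of the named genes, 3 kept their calls under 23 alternatives. ENSECAG00000050818 lost its call in 2 fits with all libraries (-2.57 in both, limma adjusted p = 0.0966 with the random block and 0.102 for the 8 pairs alone). It kept the call with all libraries and spread as a covariate. The causes of these shifts were not tested. Low genes rest on few reads: the lowest of 4 groups by level had a mean of 29.6 reads per gene at Control week 0, the highest 5877.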
